A study of Vitis vinifera with 4 samples.

Results

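The NAC61 binding events described here are those whose summit lay from 1 to 5000 bp beyond the 3′ end of the gene to which the event had been assigned. They numbered 208, at 197 genes. The assigned gene and its coordinates were at hand for 1879 of the 8558 events of the list, so the 208 events were 11.1% (95% Wilson interval 9.73 to 12.6) of the events that could be placed, and at least 2.43% of the list. Position alone chose them, and no signal or q-value was used. Among the assigned genes, 109 of the 208 events lay beyond a gene on the plus strand and 99 beyond a gene on the minus strand.

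DNA affinity purification sequencing (DAP-seq) recovers the genomic fragments that a tagged TF retains in vitro. The NAC61 coding sequence of grapevine (VIT_08s0007g07640) was fused to a HALO tag, and the group HALO-NAC61 held 2 replicates. The control group held 2 replicates made with the HALO vector without NAC61, labelled pIX-HALO and described as GST-HALO in the protocol. Both proteins were translated in rabbit reticulocyte lysate, and both groups shared genomic DNA from young leaves pooled from fruiting cuttings of Vitis vinifera cv. ‘Syrah’. The replicates therefore repeat the assay on 1 pooled DNA source. The DNA was naked, without nucleosomes, and fragments of ‘Syrah’ were placed on the PN40024 12X.v2 assembly, which comes from another grapevine genotype. The deposited list combines both HALO-NAC61 replicates against the control. It holds no value per replicate, so no SD could be given, and differences between events were set only against counting error.

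NAC proteins are a large family of plant TFs named after NAM, ATAF and CUC. A conserved domain at the N terminus binds DNA, usually as a dimer, and the C terminus regulates transcription. Their sites share a short core, CGT followed by G or A, which reads CACG or TACG on the other strand. NAC TFs are known for roles in organ boundaries, secondary walls, senescence, fruit ripening and responses to drought and pathogens. The DNA beyond the 3′ end of a gene lies past its annotated transcript, and in a compact genome it can be upstream of the next gene. An event there is thus placed by the gene model to which it was assigned.

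The peak caller attached a k-mer, the short sequence matched at the event, to 81 of the 208 downstream events. The k-mers of the 6 highest signals that had one are shown, and that of ATRAD3, whose event was among the closest to a gene end, each written 5′ to 3′ on the strand that reads CGT, with these 3 core bases in capitals, because they are the only bases of the bound DNA that were at hand. They are followed by the 3 k-mers found most often among the downstream events and by the 1 k-mer without the core. AMT1.1 (VIT_06s0004g06520), an ammonium transporter, had 154 reads at 519 bp beyond the gene.
YABBY4: tggCGTgt
CYP79A2: gattgCGTgt
Armadillo/beta-catenin repeat: atagCGTgtaa
Alcohol dehydrogenase: gattgCGT
AMT1.1: ggttgCGTgtt
Alpha-glucosidase: atgaCGTgt
ATRAD3: gattgCGTa
found 7 times: atgaCGTg
found 6 times: tagCGTgt
found 6 times: tgCGTgt
Cyclin D3_2: attgcttgt

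Signals of the downstream events covered a wide range around the centre of the list. Signal counts the HALO-NAC61 reads that the peak caller gave to an event, pooled over replicates. Among the 208 events it ran from 40 to 343 reads, with quartiles of 72, 92 and 112 (95% interval of the median 85 to 96), and 109 of them were above the median of the whole list, 89.25 reads. The median lay above that of the 628 events 1 to 5000 bp upstream of the TSS (84.2 reads, 81 to 87) and below that of the 696 events inside the gene (94 reads, 92 to 97). These intervals overlapped on both sides. At the downstream median of 92 reads, counting error alone gives an interval from 74.2 to 113 reads, and 98 of the 208 signals fell inside it. The order of events in the middle of the range is therefore not resolved. At least 200 reads were found for 5 downstream events (2.40%), against 2.86% of the whole list, whose highest signal was 2802 reads.

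The −log10 of the q-value of an event (−log10 q) gives the significance of its reads against the control, not the size of their excess. For the downstream events its median was 7.005 (6.26 to 8.32) and its range 2.01 to 48.81, against a median of 7.15 over the whole list. A −log10 q of at least 3 was reached by 188 downstream events (90.4%), against 87.2% of all events in the list. At the stricter minimum of 5 there were 140 (67.3%, 60.7 to 73.3), against 66.9% of the list. Both shares were close to the background. The same minimum of 5 was passed by 64.2% of the upstream events and 71.0% of the events inside genes. Of the downstream events, 21 (10.1%) were in the top 10% of the list by signal, 22 (10.6%) in the top 10% by q-value and 16 in both.

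Signal and q-value did not order the downstream events alike. Spearman's rho between them was 0.779 over the 208 events, and 0.767 over the whole list, given as a description because both are computed from the same reads. Between 100 and 120 reads, 37 downstream events had −log10 qs from 3.56, at an ankyrin gene (VIT_10s0003g04500, 102 reads), to 30.61, at ATRAD3 (VIT_14s0036g01530, 112.1 reads). The number of control reads at each event was not analysed here.

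**Figure D1:**
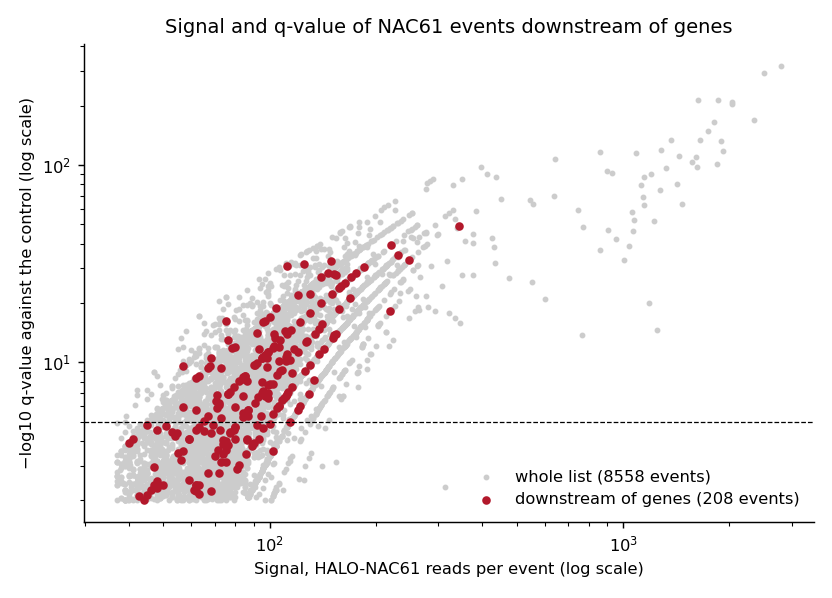
Signal (HALO-NAC61 reads per event, log axis) against the −log10 q (log axis, dashed line at 5) of each event, with the 208 downstream events in colour over all 8558 events of the list in grey. The downstream events spread over the body of the list, and the highest of them, at YABBY4, stands at 343 reads and 48.81.

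The event with the highest signal and q-value was 517 bp beyond the end of YABBY4 (VIT_06s0009g00880, annotated as Axial regulator YABBY2), on chromosome 6 at 13083522 (12X.v2 coordinates). YABBY genes encode plant TFs that set the lower side of leaves and floral organs. This event had 343 reads, a −log10 q of 48.81 and the k-mer with GGCGT shown above. MTPc3 (VIT_08s0007g06760), of the cation efflux family that moves metal ions out of the cytosol, followed with 248 reads and 32.96, at 2089 bp beyond the gene on chromosome 8 (20426913). The gene annotated as MAG2 (VIT_17s0000g05940) had an event of 231 reads and 34.93 at 1668 bp on chromosome 17 (6612621). Neither of the latter had a k-mer.

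WBC1 (VIT_18s0166g00080), an ABC transporter of the G subfamily on chromosome 18, was represented by 2 of the 10 highest signals. Its events lay 1619 bp beyond the gene (14021423), with 220 reads and a −log10 q of 39.17, and 864 bp beyond it (14022178), with 176 reads and 28.40. ABC transporters move their substrates across membranes with energy from ATP. The event of CYP79A2 (VIT_06s0009g02930) had 219 reads at 1638 bp (chromosome 6, 17083761), and a lower −log10 q of 18.17. The Arabidopsis P450 of that name converts phenylalanine to its aldoxime. In grapevine its event was also the most isolated of the downstream events, with the nearest other event of the list 307296 bp away.

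The remaining 4 of the 10 highest signals came from genes of unrelated function. The sigma subunit of the AP2 adaptor (VIT_18s0001g14240), which links cargo to clathrin in endocytosis, had 185 reads and a −log10 q of 30.56 at 803 bp (chromosome 18, 12261971). An armadillo repeat protein (VIT_14s0066g00440) had 170 reads and 26.98 at 522 bp (chromosome 14, 26956199), and VvDREB32 (VIT_18s0001g05890) 169 reads and 21.07 at 4852 bp (chromosome 18, 31697156). DREB proteins are TFs of drought and cold responses. An alcohol dehydrogenase (VIT_02s0025g02730), an enzyme that interconverts alcohols and aldehydes, had 163 reads and 25.34 at 1241 bp (chromosome 2, 2184600). Of the 10 highest signals, 4 carried a k-mer. The Poisson interval at YABBY4 (308 to 381 reads) lay above that at MTPc3 (218 to 281), whereas the intervals of neighbours in the order of the other 9 overlapped.

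Downstream events gathered towards the gene end. The quartiles of the distance beyond the 3′ end were 521, 1224 and 2523 bp, and 95 of the 208 events (45.7%, 39.0 to 52.5) lay within the first kb. In the following kb windows 44, 36, 19 and 14 events were found. The upstream events showed a like share in their first kb, 286 of 628 (45.5%). Closer in, the first 250 bp held 28 downstream events (13.5%) and 128 upstream events (20.4%). Signal was only weakly related to this distance, with a Spearman's rho of −0.14 for the signal and −0.06 for the −log10 q over the 208 events, given as a description. The median signal was 96, 95.5, 91.8, 68 and 82 reads in successive kb windows.

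**Figure D2:**
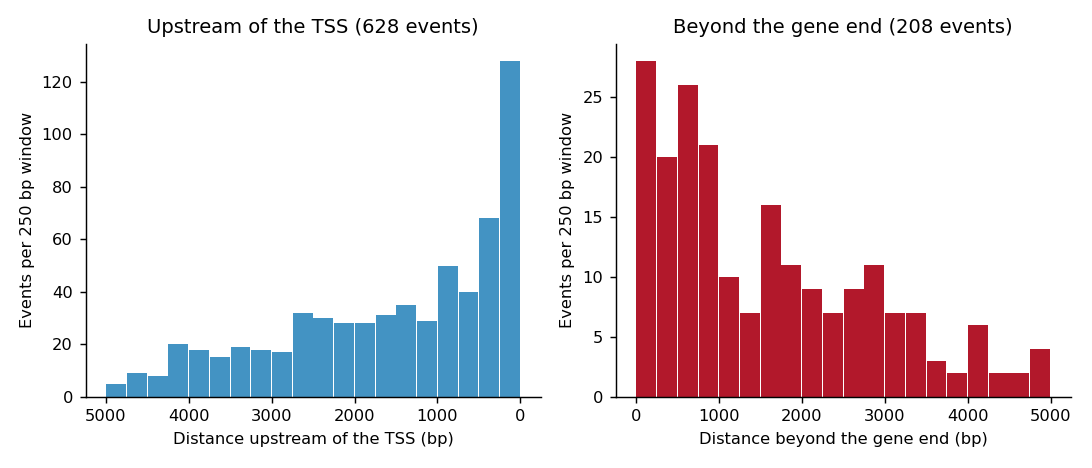
Number of events per 250 bp window, beyond the 3′ end for the 208 downstream events and upstream of the TSS for the 628 upstream events, with a separate vertical scale for each panel. The first downstream window held 28 events and the first upstream window 128.

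Events closest to the gene end belonged to 5 genes. A constans-like gene with a CCT motif (VIT_06s0004g03870), of a family of TFs known from flowering time, had its summit 13 bp beyond the end, with 110.5 reads and a −log10 q of 14.34. At 15 bp were the event of ATRAD3, with 112.1 reads, and that of 3-hydroxy-3-methylglutaryl-coenzyme A reductase 3 (HMGR3, VIT_03s0038g04100), an enzyme of the mevalonate pathway, with 76 reads and 6.93. CLV2 (VIT_04s0023g00300), a receptor protein of meristem signalling, had 80 reads and 4.09 at 17 bp, and Actin-related protein 8 (VIT_19s0015g01740) 75 reads and 3.58 at 23 bp. The peak intervals, each 201 bp wide, reached back into the gene at 16 of the 208 events. The first event on the other side of the limit, at a calmodulin gene (VIT_14s0006g01400), had its summit 4 bp before the gene end, with 84.2 reads and 7.89.

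The far limit cut through a thin tail. The 5 farthest events were those of 1-phosphatidylinositol-3-phosphate 5-kinase (VIT_11s0016g00360), a lipid kinase of the endosome, at 4993 bp with 80 reads, VvDREB32 at 4852 bp, CIPK3 (VIT_06s0009g01840) at 4821 bp with 120 reads, CDC48 (VIT_05s0102g00260) at 4774 bp with 140 reads, and Cyclin delta-2 (VIT_18s0001g07220) at 4729 bp with 103.7 reads. The first event outside it belonged to Cyclin delta-2 as well, at 5038 bp with 74.3 reads and a −log10 q of 4.78.

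Genes with a downstream event were shorter at the median than the other listed genes with events. Their median length was 2078 bp (1799 to 2435), against 3577 bp for genes with an upstream event, 5465 bp for genes with an event inside and 3476 bp for genes with a farther event. Events had been associated with the closest gene model, and none of the 1879 listed events had a nearer TSS among the other listed genes. That count is no separate check, because the assignment nearly fixes it and only 1477 listed genes could be searched. The downstream summits had a median distance of 4115.5 bp from the TSS of their gene, and 134 of them were more than 3 kb away from it. The part of this assignment in the difference of length was not tested. The shortest gene model, annotated as AGO1 (VIT_01s0010g01240), an Argonaute protein of small RNA silencing, spanned 264 bp, and its event 49 bp beyond it had 80 reads and a −log10 q of 11.93. At the other extreme, the gene annotated as SYTE (VIT_11s0118g00230) spanned 25478 bp and had an event of 90 reads at 112 bp.

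**Figure D3:**
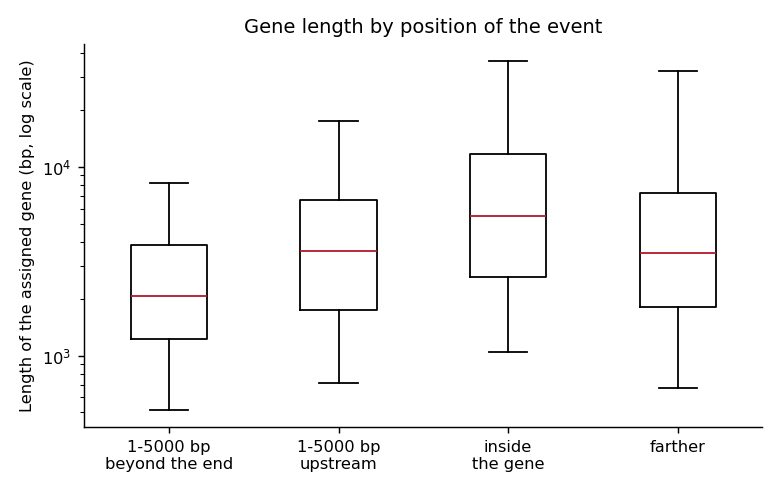
Length of the assigned genes (bp, log axis) by the position of their events, with boxes at the quartiles, whiskers from the 5th to the 95th percentile and a red line at the median. Genes with a downstream event had the lowest median, 2078 bp.

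Few downstream events lay in or next to another gene whose coordinates were listed. Of the 208, 1 was inside another listed gene, where the event of CSLG3 (VIT_02s0025g01790) fell in a further gene annotated as CSLG3. In addition, 2 lay within 5 kb upstream of another listed gene, both among ankyrin repeat genes, and 3 lay downstream of another listed gene. These counts are lower bounds, since only 1477 listed genes could be searched.

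A k-mer was attached to 38.9% (32.6 to 45.7) of the downstream events, against 48.1% of the upstream events, 38.1% of those inside genes and 40.0% of all listed events. The 81 k-mers were of 39 kinds, 7 to 11 letters long, and 20 kinds were found once. The peak caller found its k-mers in these same data, so a core shared among them is no separate evidence of NAC sites. The core CGT was present in 80 of the 81 on one strand or the other (98.8%), as in 702 of the 751 listed k-mers (93.5%). It was followed by G in 66, by A in 9, and closed the k-mer in 5. The exception, attgcttgt, was at Cyclin D3_2 (VIT_03s0180g00040), a D-type cyclin that promotes entry into the cell cycle, with 87 reads and a −log10 q of 5.36. Of all listed k-mers, 49 lacked CGT on both strands, and all 49 were this same k-mer. Read on the other strand, it matches the major NAC61 motif that the study reported, which allows A or C before G.

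The pair of bases before the core fell into few kinds. TGCGT was found in 47 of the 81 k-mers (58.0%), against 54.9% of the listed k-mers. GACGT was found in 16 (19.8% against 15.8%), AGCGT in 8 (9.88% against 6.52%) and GGCGT in 7 (8.64% against 10.8%). In 2 the k-mer gave the base next to the core as N. GACGT followed by G contains ACGTG, the core of sites bound by bZIP TFs in plants. TGCGT was the most frequent form in the downstream events and in the list alike. The k-mer found most often, 7 times, has the GACGT form.

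The median signal of downstream events with a k-mer was 80 reads (75 to 92.2), against 96 (90.5 to 102) for the 127 events without one. A −log10 q of at least 5 was reached by 63.0% (52.1 to 72.7) against 70.1% (61.6 to 77.4), and 66.9% of the whole list. Both pairs of intervals overlapped, and the difference was not tested. The signals ran over like ranges, from 45 to 343 reads with a k-mer and from 40 to 248 reads without. Within 500 bp of the gene end 23 of 48 events had a k-mer (47.9%, 34.5 to 61.7), against 58 of 160 farther out (36.2%, 29.2 to 43.9), and these intervals overlapped too.

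At 11 genes 2 downstream events were found. The higher signal was nearer the gene end at 6 of them and farther at 5, and at 6 of the 11 the counting intervals of both signals did not overlap. Alpha-glucosidase (VIT_01s0011g03450), which releases glucose from the ends of sugar chains, had 148.6 reads and a −log10 q of 32.79 at 981 bp, and 72.4 reads and 4.55 at 1388 bp. Adenine phosphoribosyltransferase (VIT_18s0001g09220), an enzyme of adenine salvage, had 153.6 reads at 595 bp and 94.4 reads at 1104 bp. For the alcohol dehydrogenase named above the values were 163 reads at 1241 bp and 87 reads at 3079 bp. In each of these 3 genes the nearer event was the higher.

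The opposite order was seen at CYP78A8 (VIT_02s0025g02570), a P450, with 57 reads at 953 bp and 100 reads at 2529 bp. CIPK3, a protein kinase activated by calcium sensors, had 77.2 reads at 2415 bp and 120 reads at 4821 bp. Cyclin delta-2 had 63 reads at 2012 bp and 103.7 reads at 4729 bp. In these 3 genes the farther event was the higher, again without overlap of the counting intervals.

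Counting intervals overlapped in the other 5 genes. They were WBC1, with 176 and 220 reads, CDC45 (VIT_12s0142g00280), a replication factor, with 86 and 93 reads, DAHPS4 (VIT_18s0001g06250), the first enzyme of the shikimate pathway, with 114 and 89 reads, bZIP47 (VIT_18s0001g13040) with 108.2 and 85.8 reads, and a bHLH gene (VIT_01s0026g02030) with 104.1 and 70.5 reads, the nearer event first in each case. At the bHLH gene the events were 205 bp apart, the shortest spacing of the 11.

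**Figure D4:**
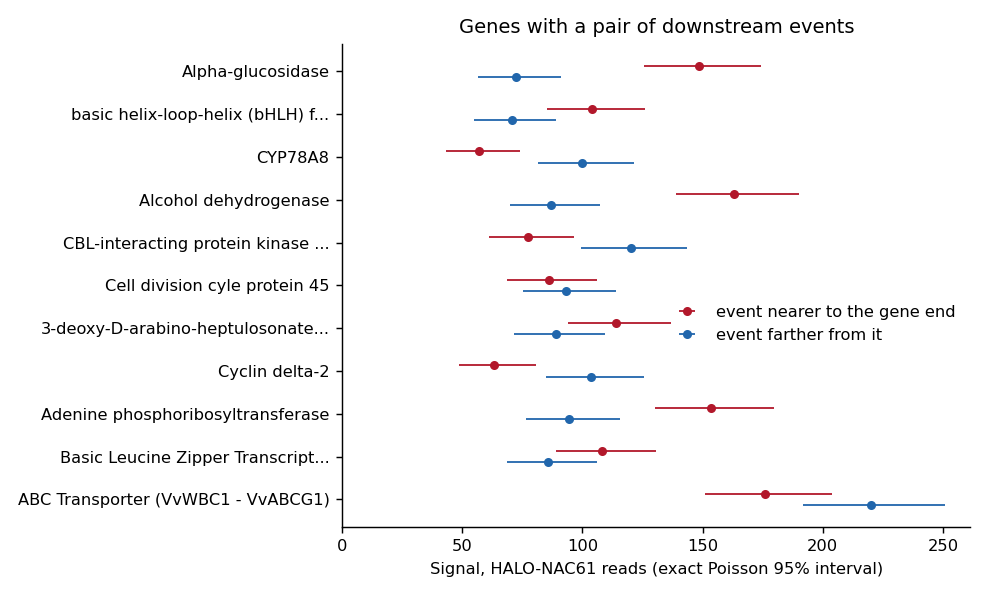
Signal (reads, horizontal axis) of both downstream events at the 11 genes with 2, 1 row per gene, with the event nearer to the gene end in red, the farther in blue and bars for 95% Poisson intervals (counting error only). At alpha-glucosidase the nearer event is the higher, 148.6 against 72.4 reads, and at CYP78A8 the farther, 100 against 57.

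Most of the genes had no other event. Of the 197 genes, 135 had 1 downstream event alone among the listed events, and 53 had further events outside the downstream window, 79 in all. These further events were upstream at 19 genes, inside the gene at 23 and farther away at 19. Over 23 pairs of an upstream and a downstream event at the 19 genes, the downstream event had the higher signal in 13. SAUR29 (VIT_16s0098g01150), a small gene induced by auxin, had 293 reads and a −log10 q of 49.91 upstream and 142 reads and 11.75 at 2718 bp downstream. The constans-like gene with the event closest to its end had 221 and 132 reads upstream, and 110.5 reads downstream.

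Downstream events had neighbours about as often as the list as a whole. Another event lay within 500 bp of 10 of the 208 (4.81%), against 5.89% of the whole list, and within 1000 bp of 19 (9.13%, against 11.3%). None had one within 200 bp. The median distance to the nearest event of the list was 12497.5 bp, and 30 events (14.4%, against 12.7% of the list) had none within 50 kb. By chromosome, downstream events made up 22 of 119 listed events on chromosome 1 (18.5%, 12.5 to 26.4) and 5 of 110 on chromosome 5 (4.55%, 1.96 to 10.2). These were the extremes picked from all chromosomes and were not tested.

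By gene annotation, 101 of the 208 events fell in at least 1 of 12 groups matched on the annotation text. The genes at hand carried annotations from the start of the alphabet, so families such as MYB, NAC and WRKY were not analysed here. Transcription factors were the largest, with 22 of 125 listed events downstream (17.6%, 11.9 to 25.2, against 11.1% of all listed events) and a median signal of 105.55 reads. The functional category of transcription factor activity given with the genes held 20 downstream events of 145 (13.8%, 9.11 to 20.3), close to that background. A −log10 q of at least 5 was reached by 18 of the 22, against 66.9% of the whole list. After YABBY4 and VvDREB32 came bZIP24 (VIT_08s0040g00870) with 152.3 reads at 64 bp beyond the gene, BPC2 (VIT_01s0011g06380), of the basic pentacysteine TFs that bind GA repeats, with 130 reads at 639 bp, and bHLH014 (VIT_03s0063g00170) with 120 reads at 155 bp. The next was ARF11 (VIT_11s0065g00310, annotated as Auxin response factor 2), with 116 reads at 1400 bp.

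Auxin genes accounted for 11 downstream events of 75 listed (14.7%, 8.39 to 24.4, against 11.1% of all listed events). Their signals ran from 54 to 142 reads, and 9 of the 11 reached a −log10 q of 5 (66.9% of the whole list). By annotation they included TFs and induced genes, and the auxin response factors were also counted among the transcription factors. ARF9 (VIT_10s0003g04100, annotated as Auxin response factor 3), a TF that binds auxin response elements, had 111 reads at 3166 bp. Among the genes of the SAUR family, SAUR29 led with 142 reads, followed by VIT_06s0061g00390 with 106 reads and SAUR9 (VIT_03s0038g00950) with 99. The gene annotated as the auxin-binding protein ABP19a (VIT_11s0016g01220) had 106.4 reads at 331 bp. A k-mer was attached to 8 of the 11 events, against 38.9% of all downstream events, and the difference was not tested.

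Calcium signalling genes had 9 downstream events of 88 listed (10.2%, against 11.1% of all listed events), with 77.2 to 146 reads, and 8 of the 9 reached a −log10 q of 5, against 66.9% of the whole list. A gene annotated as calcineurin phosphoesterase (VIT_07s0141g00990), placed here by its name, was the highest, with 146 reads and 28.45 at 595 bp. Among the sensors and their partners, a gene with an IQ region, which binds calmodulin (VIT_06s0004g00690), had 138 reads, the CML gene VIT_01s0026g02590 133.5, CIPK3 120 at its stronger event, CML37 (VIT_18s0122g00180) 97 and the calmodulin gene VIT_08s0007g05790 92.4. Calmodulin and CML proteins sense calcium, and CIPK kinases act with another class of sensor.

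Cell cycle genes had 9 downstream events of 39 listed (23.1%, 12.6 to 38.3, against 11.1% of all listed events), of which 5 reached a −log10 q of 5 (66.9% of the whole list). CDC48, an ATPase that extracts ubiquitinated proteins, had 140 reads and 26.92. KIP-related protein 7 (VIT_07s0031g00800), an inhibitor of cyclin-dependent kinases, had 127 reads and 12.62 at 115 bp. The D-type cyclins, which activate these kinases, included Cyclin delta-2, the Cyclin-D like gene VIT_00s0322g00010 with 92.2 reads at 58 bp, and Cyclin D3_2. Activators and an inhibitor of the same kinases were thus both on the list.

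ABC transporters had 6 downstream events of 65 listed (9.23%, against 11.1% of all listed events), the widest spread among these groups after the transcription factors. Beyond WBC1, MDR14 (VIT_07s0005g02660) had 127.7 reads, MRP10 (VIT_15s0021g00220) 75, the G member 29 (VIT_00s0415g00010) 68 and the B member 11 (VIT_19s0085g00120) 40, the lowest of all downstream signals. The cytochrome P450 group had 9 of 56 (16.1%, 8.69 to 27.8, against 11.1% of all listed events), with a median of 74 reads. It left out CYP707A1, a further P450 with 65 reads and a −log10 q of 5.04, counted under hormone turnover below. In the P450 group, 3 of the 9 reached a −log10 q of 5, against 66.9% of the whole list. After CYP79A2 their signals ran from 57 to 100 reads, with 79 at CYP87A3 (VIT_18s0122g01460), 77 at CYP87A2 (VIT_02s0025g04080), 74 at CYP83B1 (VIT_18s0001g13820) and 69 at CYP72A1 (VIT_15s0021g01060). Only CYP79A2 and the stronger event of CYP78A8 were above the median of the whole list.

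Cell wall genes had 7 downstream events of 45 (15.6%, 7.75 to 28.8, against 11.1% of all listed events), with 57 to 115 reads. They included genes annotated as cellulose synthases, CSLD5 (VIT_07s0005g01030) with 110 reads, CSLG3 with 99 and CSLD1 (VIT_14s0030g02140) with 95. A beta-1,3 glucanase (VIT_10s0003g02720), which degrades callose, had 114. A BURP domain gene (VIT_03s0063g02320) was the highest with 115 reads and a −log10 q of 14.59, and a barwin gene (VIT_15s0046g02940) had 75. Hormone synthesis and turnover had 5 of 13 (38.5%, 17.7 to 64.5, against 11.1% of all listed events), with 62 to 96 reads. A −log10 q of 5 was reached by 3 of the 5, against 66.9% of the whole list. A k-mer was attached to 38.9% of all downstream events and to none of these 5. These were a pair of ACC synthase genes of the ethylene pathway (VIT_02s0025g04980 with 96 reads and VIT_11s0016g02560 with 62), allene oxide cyclase (VIT_01s0011g03090) with 76 and allene oxide synthase (VIT_03s0063g01860) with 63, both of jasmonate synthesis, and CYP707A1 (VIT_02s0087g00710), which breaks down abscisic acid, with 65.

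Genes annotated with disease resistance came last in the alphabet among the downstream events, so this group may be cut short. The disease resistance group had 9 downstream events of 40 (22.5%, 12.3 to 37.5, against 11.1% of all listed events). Their median was 70 reads, and 4 of the 9 reached a −log10 q of 5, against 66.9% of the whole list. Hcr2-5D (VIT_04s0023g02870), annotated after a family of tomato resistance proteins, had 150 reads and 22.32. One gene annotated as Avr9/Cf-9 rapidly elicited protein 20 (VIT_19s0014g04650) had 125 reads and 31.39, and the other (VIT_12s0134g00240) 67 reads and 2.75. Genes of this name were described in tobacco cells responding to a fungal effector. Lower signals were found for a Bet v I allergen (96 reads, VIT_01s0011g05180), DIR25 (71, VIT_08s0007g07000) and a TIR-NBS-LRR gene (70, VIT_18s0075g00400).

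Ankyrin and armadillo repeat proteins share folds for protein contacts and no single function. They had 10 downstream events of 75 (13.3%, 7.41 to 22.8, against 11.1% of all listed events), with a median of 68 reads. Below the armadillo gene of 170 reads stood ankyrin genes with 122 (VIT_13s0106g00060), 120 (VIT_05s0020g04750), 102 and 63 (VIT_04s0044g00910) reads and an armadillo gene with a U-box (VIT_04s0043g00840) with 73. Alcohol dehydrogenases had 5 of 9 listed events downstream (55.6%, 26.7 to 81.1, against 11.1% of all listed events). In addition to the pair of events above they were Alcohol dehydrogenase 7 (VIT_17s0000g03280) with 117 reads, VIT_14s0068g01760 with 80, and a cinnamyl alcohol dehydrogenase (VIT_12s0142g00710), of the lignin pathway, with 62. The drought-related group had 2 of 18 listed events downstream (11.1%, 3.10 to 32.8, against 11.1% of all listed events). These were at VvDREB32 and at RD22 (VIT_04s0008g04160), a gene induced by dehydration, with 68 reads and a −log10 q of 2.23. The shares of these small groups have wide intervals, and the groups were not tested against the list. The intervals take events as independent, although 5 events of alcohol dehydrogenases came from 4 genes and 9 of cell cycle genes from 7.

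**Figure D5:**
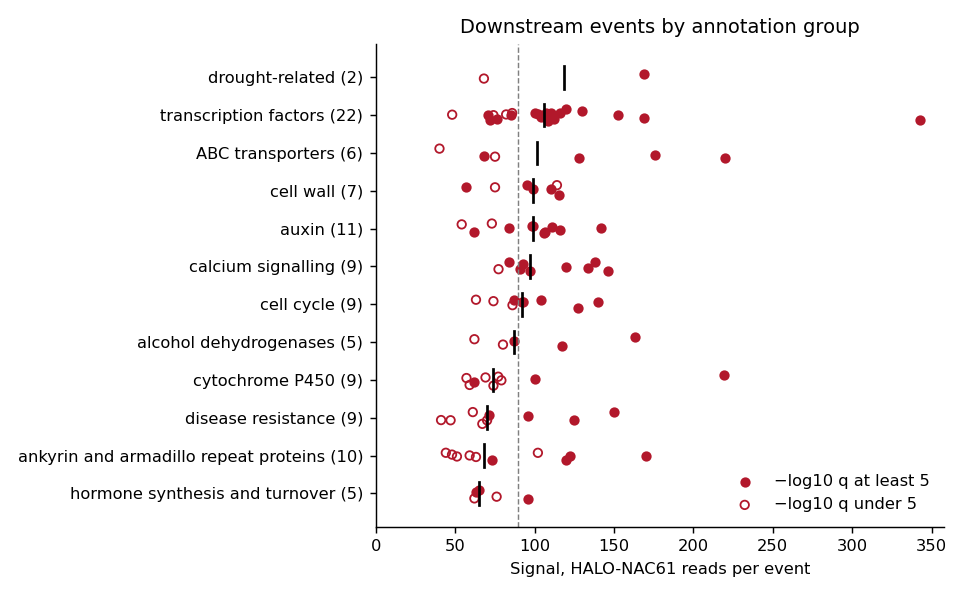
Signal (reads) of the downstream events in each of the 12 annotation groups, with a black bar at the group median and a dashed line at the median of the whole list, 89.25 reads. Filled points had a −log10 q of at least 5, and the highest point is YABBY4 among the transcription factors, at 343 reads.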

How the data were processed

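The list of binding events was used as deposited. The authors trimmed reads with fastp 0.21.0 and used Bowtie2 (version 2.0 in the submitters' processing notes) to align them to PN40024 12X.v2, removed reads of low mapping quality, and called events with GEM on both replicates together. The deposited signal counts the HALO-NAC61 reads given to an event, is not scaled to library size and need not be whole. The score deposited by the authors was not used. The −log10 q-value deposited by the authors compares the event with the control, and their p-value was not used. Library depths were not analysed here, so the read count behind an event is its signal.

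Genes, gene coordinates, annotations and k-mers were taken from the supplementary event table of the study, of which the copy used here held 1879 of 8558 events, sorted by gene annotation. No overlap or enrichment test was therefore run, and a group that is late in the alphabet may be missing. Distances ran from the summit to the 3′ end of the gene in the direction of transcription, and are exact to about 1 bp. Medians carry 95% order-statistic intervals, shares Wilson intervals and signals exact Poisson intervals. All cover counting error only, and PCR copies are not independent molecules. The distance and interval steps were tested on simulated data. Genes named had the 10 highest signals, the 5 highest −log10 qs, 2 downstream events, or the 5 smallest or largest distances. Each of the 12 annotation groups added its members of highest signal and −log10 q, then further members by signal, up to a set number. AMT1.1, SYTE and AGO1 were added after their values were seen. Members and groups were chosen with earlier results of these data known. Alternatives covered the outer limit, measuring from the lower end of the peak interval instead of the summit, the minimum q-value and the distance between neighbours. Python 3.11.15, numpy 2.4.6, pandas 2.3.3, scipy 1.17.1 and matplotlib 3.10.9 were used.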

Additional observations from a re-analysis of the deposited data

How the results depend on the processing

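Over 10 results and 31 alternatives, 26 values stayed inside the interval of the reported value or, for counts, within 1.5 times it, and 5 moved. With an outer limit of 1 kb the number of downstream events was 95 instead of 208. With a limit of 3 kb their share of the listed events was 9.31% instead of 11.1%. Their median signal was 103 reads among those that reached a −log10 q of 5, against 92. The share with another event nearby was 0 within 200 bp and 9.13% within 1000 bp, against 4.81% within 500 bp. No paired analysis was possible because the list pools both replicates, and no replicate could be left out. Near the median, 92 reads carry a counting interval from 74.2 to 113, which limits the ranking of events.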
